A study of Sus scrofa with 9 samples.

Results

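The caspases, the BCL2 family and the other core genes of apoptosis were examined for their exonic 5-hydroxymethylcytosine (5hmC) in swine mesenchymal stem/stromal cells (MSCs). The members were a list of 44 gene symbols, taken by name. The list was drawn up with earlier results of these data known. Of these, 39 were present in both deposited tables, among 18752 symbols that the tables shared. BAD was present in the first table only, and CASP4, BIK, BCL2L2 and BIRC2 were not analysed here. The 39 genes comprised 21 pro-apoptotic genes, 11 anti-apoptotic genes and 7 genes whose products have both or other roles.

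The MSCs came from abdominal subcutaneous fat of female domestic pigs, 3 months old at the start, fed for 16 weeks either standard chow (Lean) or a diet rich in fat and fructose (Obese). 5hmC was profiled by hydroxymethylated DNA immunoprecipitation sequencing (hMeDIP-seq), in which an antibody against 5hmC pulls down DNA fragments before they are sequenced. There were 3 Lean-MSC, 3 untreated Obese-MSC and 3 vitamin-C-treated Obese-MSC libraries. Per the methods, third-passage Obese-MSCs were kept for a further passage, treated and untreated alike. The treated cultures were given 50 μg/mL vitamin-C for 48 h. No Lean-MSCs received added vitamin-C. The paper states that the growth medium itself held some vitamin-C, as ascorbic acid phosphate, so the effect of vitamin-C may be underestimated. Untreated here means without added vitamin-C. All cells were expanded in culture before DNA was taken. Whether a treated and an untreated culture share a pig is not given in the labels, so p-values measure the spread between these libraries. Lean libraries are numbered 7 to 9, untreated Obese libraries 1 to 3 and treated libraries 4 to 6, as in the labels. Values are normalized counts of 5hmC reads over all exons of a gene.

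Apoptosis is carried out by caspases, proteases that lie dormant until initiator members are activated on death receptor complexes or on the apoptosome and then cleave executioner members. The BCL2 family decides whether the mitochondrial outer membrane is opened. BH3-only proteins sense damage, BAX, BAK1 and BOK form the pores, and BCL2 and its close relatives hold BAX and BAK1 in check. Inhibitor of apoptosis proteins (IAPs) restrain caspases further downstream. 5hmC is made from 5-methylcytosine by TET enzymes, which use vitamin-C as a cofactor, and in gene bodies it is commonly found on transcribed genes, so the values are a property of the DNA and not a measure of RNA or protein.

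The first table summed to between 494566 and 522269 normalized counts per library and the second to between 547242 and 593846. The untreated Obese libraries entered both tables and had median values 1.10 to 1.13 times higher in the second, so groups were compared only within a table, and both comparisons rest on the same 3 untreated libraries. The MSC surface marker genes NT5E, THY1 and ENG carried 5hmC in every library, but so did CD34 and PTPRC, which MSCs are not expected to express, so these values do not verify the cell type. CD14, likewise not expected in MSCs, was at 0 in all 3 Lean libraries and at 0.650, 0.924 and 4.49 in Obese 1, 2 and 3, and ENG was higher in every Obese than in every Lean library, with a ratio of 1.42. Their part in the results was not tested. Low values lay on steps of about 1 normalized count, for example 1.03 in Lean 9, where 99.2% of values were within 0.1 of a whole step, but the steps were too blurred in other libraries for read counts to be recovered. A value of 3 normalized counts was used as the floor below which no fold is given when both group means lie under it. No single fold is therefore given for CYCS in either comparison or for BAD in the first, although both enter the counts and medians over members.

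The first comparison asked how diet-induced obesity was associated with exonic 5hmC on these genes. CASP14, a caspase best known from the terminal differentiation of skin, and HAX1, a mitochondrial protein that protects cells from death, had lower 5hmC means in Obese-MSCs, HAX1 at values of only a few normalized counts. The pore-forming genes BAX, BAK1 and BOK had ratios of means of 1.60 to 1.92, but their groups overlapped. By the study's criteria, applied here to the deposited values as p at most 0.05 in a two-sided equal-variance test and Obese-MSC mean divided by Lean-MSC mean no smaller than 1.4 or no larger than 0.7, 2 of 40 members differed and both were lower, against a background of 4.50% of all 18933 genes in either direction, 2.07% higher and 2.43% lower. By limma on log2(normalized count + 1), adjusted over all 15146 genes tested, 0 of 35 members passed an adjusted p of 0.05, and 0 genes did so overall. At an unadjusted p of at most 0.05, limma marked 2 of the 35 members (CASP14 and BOK), against 6.81% of all genes. Across the 40 genes, 19 ratios were above 1 and 21 below, the median log2 ratio was −0.00, and the median over all genes was 0.01.

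CASP14 (chr2:62522294-62531594, Sscrofa11.1) had 77.0, 94.3 and 85.2 normalized counts in Lean 7, 8 and 9 and 42.5, 41.6 and 63.1 in Obese 1, 2 and 3. Every Obese library lay below every Lean library, although Obese 3 was closer to the Lean range than the others. The group means were 85.5 ± 8.66 in Lean-MSCs and 49.1 ± 12.1 in Obese-MSCs (SD, n = 3 each), a log2 ratio of −0.80. The adjusted p from limma was 0.668, and the unadjusted p was 0.00265. When single libraries were omitted, CASP14 met the study's criteria in 6 of 6 cases, with log2 ratios between −1.02 and −0.70.

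HAX1 (chr4:95467629-95470972) had 5.58, 3.97 and 3.10 normalized counts in Lean-MSCs and 2.41, 0.930 and 1.22 in Obese-MSCs. The groups did not overlap, but all 3 Obese values were under the floor and amounted to about 1 to 3 steps, so counting error alone is large and no counting interval could be given. The means were 4.22 ± 1.26 and 1.52 ± 0.785 (SD, n = 3 each) and the log2 ratio was −1.47. HAX1 was too low to enter the limma test. It met the study's criteria only without Obese 1 or without Lean 9 and missed them in the other 4 of 6 cases in which a library was left out.

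Groups did not overlap for 5 of 40 members, against 11.8% of all genes (5.70% higher and 6.06% lower). Besides CASP14 and HAX1 these were MADD, HRK and BCL2L13. For a single gene an exact two-sided permutation test over 20 arrangements of 3 against 3 libraries cannot go below 0.1, the value these 5 genes reached. MADD (chr2:15270783-15315459), whose product binds the TNF receptor and protects cells from it, had 55.3, 49.6 and 48.3 normalized counts in the Lean libraries and 31.6, 39.9 and 36.5 in the Obese libraries. Its group means were 51.1 ± 3.72 and 36.0 ± 4.13 (SD, n = 3 each), and its ratio of 0.705 lay just outside the threshold of 0.7. When single libraries were omitted, MADD met the criteria without Obese 2, Obese 3, Lean 8 or Lean 9. It missed them without Obese 1 or Lean 7. The adjusted p of MADD from limma was 0.738, for a log2 change of −0.50 ± 0.24 (SE).

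HRK, a BH3-only gene, went the other way, with 6.95, 6.62 and 8.19 normalized counts in Obese-MSCs and 3.47, 4.96 and 6.15 in Lean-MSCs. The ratio of means was 1.49, the nearest Lean and Obese libraries were less than 1 step apart, and the adjusted p from limma was 0.872. BCL2L13, a mitochondrial relative of BCL2 that also takes part in mitophagy, had 31.1, 30.3 and 29.5 normalized counts in Obese-MSCs and 23.8, 26.8 and 21.6 in Lean-MSCs. The Obese libraries of BCL2L13 were nearly equal to each other and all above the Lean range, at a log2 ratio of 0.33 and an adjusted p of 0.866 by limma. BID, the BH3-only protein that links death receptors to mitochondria, lies 2.37 kb from BCL2L13 on chromosome 5. BID had 24.5, 19.9 and 11 normalized counts in Obese-MSCs against 20.2, 17.9 and 13.4 in Lean-MSCs. The groups of BID overlapped throughout, at a log2 ratio of 0.11.

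**Figure D1:**
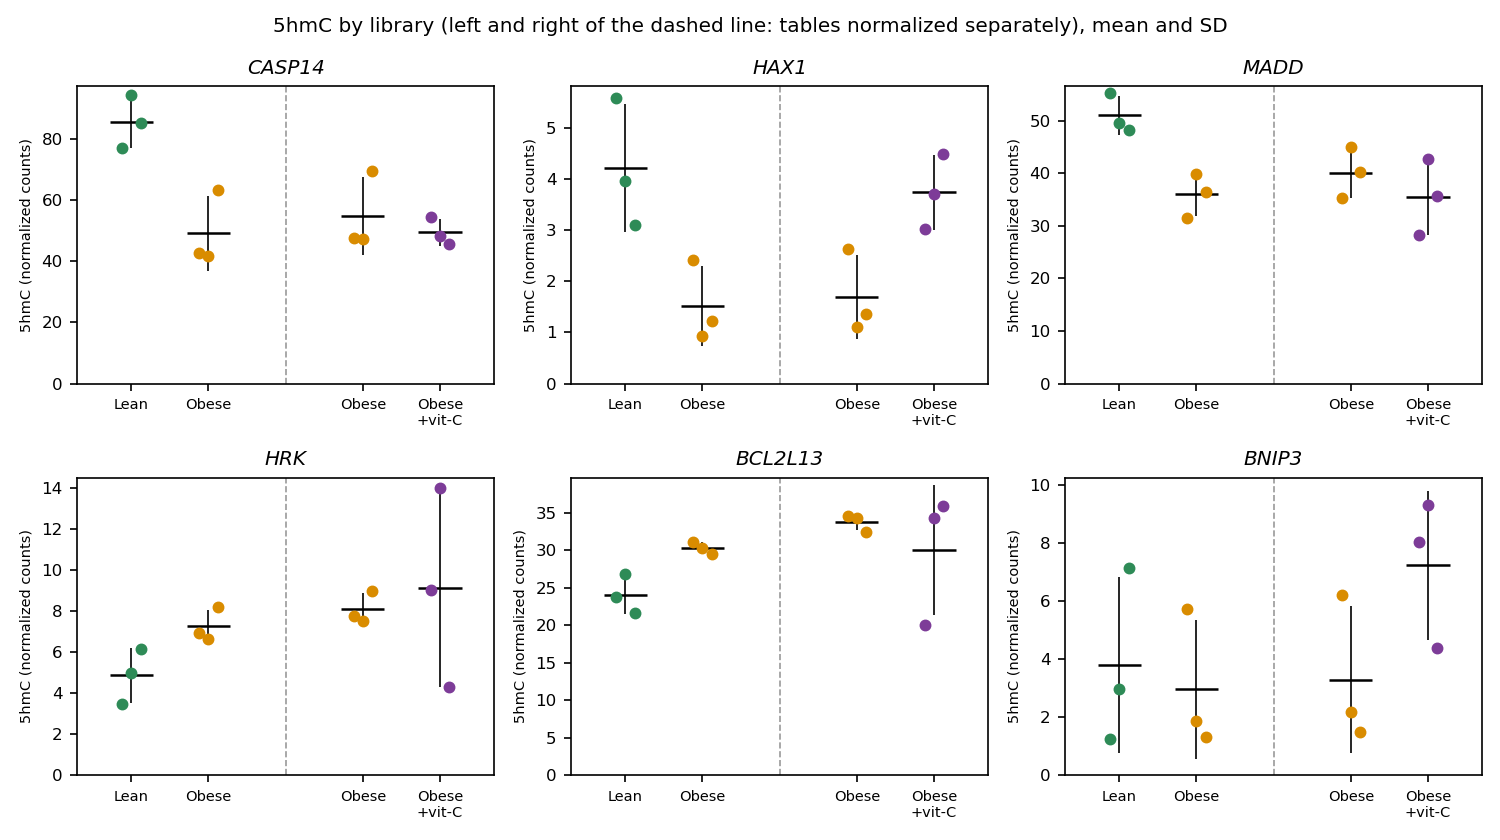
5hmC of CASP14, HAX1, MADD, HRK, BCL2L13 and BNIP3 in normalized counts (y axis) for each library (points), with the group mean (horizontal bar) and SD (vertical line), n = 3 per group. Left of each dashed line are Lean- and untreated Obese-MSCs, right of it untreated and vitamin-C-treated Obese-MSCs from the separately normalized second table. CASP14 and MADD are lower in all Obese libraries than in all Lean libraries, and treated and untreated libraries overlap, while HAX1 is higher in all treated libraries at values of 3.02 to 4.50.

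Among the initiator caspases, all 4 had a ratio of means above 1 in Obese- versus Lean-MSCs, with log2 ratios from 0.23 to 0.67, and none met the study's criteria. CASP8, which is activated at death receptors, had 73.9, 62.5 and 75.2 normalized counts in Obese-MSCs and 46.6, 49.6 and 74.9 in Lean-MSCs. Lean 9 reached the Obese range while the other Lean libraries stayed below it. Without Lean 9, CASP8 met the criteria, with a log2 ratio of 0.55. The log2 ratio with all libraries was 0.31, with an adjusted p of 0.852 by limma.

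CASP10, the close relative of CASP8, had 161, 184 and 200 normalized counts in Obese-MSCs and 181, 144 and 141 in Lean-MSCs. The library Lean 7 lay within the Obese range, and the log2 ratio was 0.23. CASP9, the initiator of the apoptosome, had 12.3, 21.9 and 8.55 in Obese-MSCs against 12.4, 12.9 and 9.27 in Lean-MSCs. The excess of CASP9 came from Obese 2, without which the log2 ratio was −0.15. CASP2, an initiator linked to DNA damage, had 65.9, 37.7 and 107 in Obese-MSCs and 37.5, 48.7 and 46.2 in Lean-MSCs. Obese 2 lay at the lower end of the Lean range of CASP2 and Obese 3 far above it, and the ratio of 1.59 had an adjusted p of 0.779 by limma.

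CASP8, CASP10 and CFLAR, the catalytically inactive homologue that blocks CASP8 at death receptors, are neighbours on chromosome 15, with gaps of 22.4 kb between CFLAR and CASP10 and 27.7 kb between CASP10 and CASP8. CFLAR had 137, 119 and 103 normalized counts in Obese-MSCs and 132, 117 and 146 in Lean-MSCs. Its log2 ratio of −0.14 was opposite in sign to the 0.23 of CASP10 and the 0.31 of CASP8, and all 3 genes had overlapping groups.

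The executioner caspase in the list, CASP6, did not separate the groups. It had 3.50, 14.4 and 7.15 normalized counts in Obese-MSCs and 7.94, 11.9 and 5.17 in Lean-MSCs. The means were 8.33 ± 5.52 and 8.35 ± 3.40 (SD, n = 3 each), at a log2 ratio of −0.00. CASP1, the inflammasome caspase that matures interleukin-1β, ranged from 3.60 to 5.55 in Obese-MSCs and from 4.12 to 4.97 in Lean-MSCs.

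Of the apoptosome components and factors released from mitochondria, none met the criteria and no group pair was separate. APAF1, the scaffold of the apoptosome, had 42.8, 76.0 and 71.6 normalized counts in Obese-MSCs and 66.7, 90.4 and 41.2 in Lean-MSCs. Both groups of APAF1 covered much the same range, at a log2 ratio of −0.06. CYCS, cytochrome c, was at 0, 0.944 and 2.25 in Obese-MSCs and 2.22, 0 and 2.05 in Lean-MSCs, under the floor throughout. The IAP antagonists DIABLO and HTRA2 had log2 ratios of 0.33 and −0.00. AIFM1, a flavoprotein that moves to the nucleus in caspase-independent death, had 26.1, 18.0 and 14.4 in Obese-MSCs against 27.2, 24.8 and 30.8 in Lean-MSCs. Only Obese 1 overlapped the Lean range of AIFM1, at a ratio of 0.706 and an adjusted p of 0.786 by limma, and without Obese 1 AIFM1 met the criteria. The nuclease genes ENDOG and DFFB ranged from 0.149 to 7.30 and from 1.85 to 10.2 over the 6 libraries. Their ratios of 1.67 and 0.692 rest on group means of at most 5.53 normalized counts. DFFA, the inhibitor and chaperone of DFFB, had a log2 ratio of 0.22.

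The BCL2 family effectors all had higher means in Obese-MSCs. BAX had 11.3, 20.9 and 18.7 normalized counts in Obese-MSCs and 13.4, 7.94 and 10.3 in Lean-MSCs. BAK1 had 9.11, 11.4 and 15.1 in Obese-MSCs and 10.0, 4.96 and 7.19 in Lean-MSCs. BOK had 39.2, 35.1 and 25.0 in Obese-MSCs and 10.4, 26.8 and 14.4 in Lean-MSCs. In each gene 1 Obese library lay inside the Lean range, Obese 1 for BAX and BAK1 and Obese 3 for BOK. The ratios were 1.61 for BAX, 1.60 for BAK1 and 1.92 for BOK. None of the effectors met the study's criteria, and the adjusted p-values from limma were 0.779, 0.795 and 0.668, although BOK had an unadjusted p of 0.00797. BAX met the criteria without Obese 1 and BOK without Lean 8, and when single libraries were omitted the log2 ratios stayed between 0.46 and 1.41. BOK was described because its ratio was high, after its values were seen, as were CASP2, AIFM1 and BNIP3.

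The BH3-only genes were mixed, with 3 of 7 ratios above 1. BCL2L11, which encodes BIM, had 87.3, 88.2 and 63.9 normalized counts in Obese-MSCs and 102, 87.4 and 92.4 in Lean-MSCs. Obese 3 stood below the other libraries, and the log2 ratio was −0.23. The p53 targets BBC3 and PMAIP1 had log2 ratios of 0.34 and −0.13, and BMF had −0.14. BAD was at 0, 0.960 and 0.0121 in Obese-MSCs and at 0.0301, 1.99 and 1.03 in Lean-MSCs, so no fold is given. Among the atypical members, BNIP3L and BCL2L14 had log2 ratios of 0.31 and 0.26 with overlapping groups. BNIP3, a hypoxia-induced mitochondrial protein, ranged from 1.30 to 5.72 in Obese-MSCs and from 1.25 to 7.15 in Lean-MSCs.

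Of the 4 anti-apoptotic BCL2 genes, 3 had ratios above 1 in Obese- versus Lean-MSCs, and none met the criteria. Their log2 ratios ran from −0.07 to 0.36. BCL2 had 74.4, 118 and 54.7 normalized counts in Obese-MSCs and 91.5, 87.4 and 81.2 in Lean-MSCs. The Obese libraries of BCL2 spread on both sides of a narrow Lean range, with SDs of 32.3 and 5.21, and the log2 ratio was −0.07. BCL2L1, which encodes BCL-XL, had 21.7, 19.9 and 26.9 in Obese-MSCs and 16.0, 15.9 and 25.6 in Lean-MSCs, a log2 ratio of 0.25. MCL1, a short-lived guardian of mitochondria, had 9.36, 6.59 and 10.5 in Obese-MSCs and 2.46, 10.9 and 7.19 in Lean-MSCs. Lean 7 stood low for MCL1 while the other libraries overlapped, at a log2 ratio of 0.36. BCL2L10, another relative of BCL2, varied little, from 10.0 to 11.7 in Obese-MSCs and from 9.10 to 10.9 in Lean-MSCs.

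All 4 IAP genes had ratios just under 1, with log2 ratios from −0.24 to −0.01, and none met the criteria. XIAP, the direct inhibitor of executioner caspases, had 11.8, 37.2 and 20.1 normalized counts in Obese-MSCs and 15.0, 29.8 and 24.6 in Lean-MSCs. BIRC3, a ubiquitin ligase of TNF receptor signalling, had 117, 145 and 74.8 in Obese-MSCs and 120, 114 and 130 in Lean-MSCs. As for BCL2, the Obese libraries of XIAP and BIRC3 lay on both sides of the Lean range, highest in Obese 2. BIRC5, survivin, had 7.17, 6.66 and 1.4 in Obese-MSCs and 8.89, 5.96 and 3.11 in Lean-MSCs. BIRC6, a very large IAP, ranged from 176 to 234 and from 175 to 228.

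**Figure D2:**
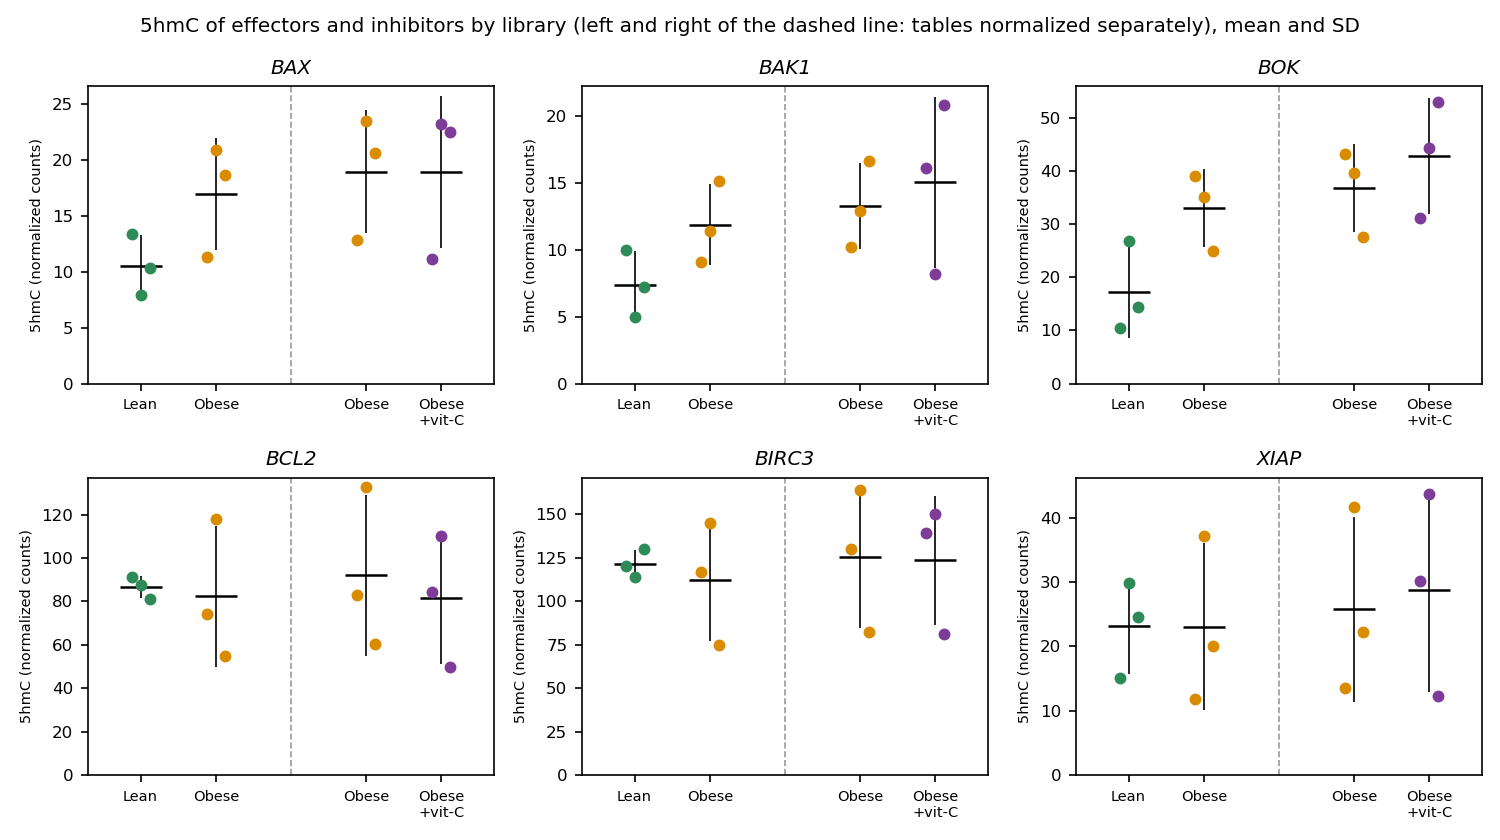
5hmC of the effectors BAX, BAK1 and BOK and the inhibitors BCL2, BIRC3 and XIAP in normalized counts (y axis) for each library (points), with the group mean (horizontal bar) and SD (vertical line), n = 3 per group and the tables separated by a dashed line. The effectors have higher means in Obese- than in Lean-MSCs with 1 Obese library in the Lean range, whereas the Obese libraries of BCL2, BIRC3 and XIAP lie on both sides of the Lean range. The anti-apoptotic genes BCL2L1, BCL2L10 and MCL1, which had ratios above 1 in Obese- versus Lean-MSCs, are not drawn.

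Taken by class, the median log2 ratio of Obese- to Lean-MSCs was 0.17 over 22 pro-apoptotic genes, of which 12 had a ratio above 1. It was −0.08 over 11 anti-apoptotic genes, of which 3 were above 1, and 51.2% of all genes were above 1. The anti-apoptotic median was −0.34 without Obese 2 and 0.08 without Obese 3, so its sign depends on single libraries. All 6 members with a ratio of at least 1.4 were pro-apoptotic (CASP2, ENDOG, BAX, BAK1, BOK and HRK). Of the 4 at or below 0.7, 2 were also pro-apoptotic (BAD and DFFB), 1 anti-apoptotic (HAX1) and 1 of other role (CASP14). BAD lay under the floor, and ENDOG, HRK, DFFB and HAX1 had group means of at most 7.25 normalized counts. Together 10 of 40 members were past either ratio threshold, against 29.4% of all genes. The mean of log2(normalized count + 1) over the pro-apoptotic genes less that over the anti-apoptotic genes was −1.05, −1.09 and −1.18 in Lean 7, 8 and 9 and −0.94, −0.92 and −0.68 in Obese 1, 2 and 3. The level of this difference depends on gene length and is not interpreted, but its values were less negative in each Obese library than in each Lean library. The group means were −1.11 ± 0.07 and −0.85 ± 0.14 (SD, n = 3 each). Without HAX1 the ranges overlapped, from −1.47 to −1.27 in Lean-MSCs and from −1.31 to −1.02 in Obese-MSCs, and they also overlapped without the members that had a group mean of 3 or less. Without BAX, BAK1 and BOK they did not overlap, from −1.14 to −1.02 and from −0.99 to −0.75. The classes were drawn up with results of these data known, so no test is given.

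**Figure D3:**
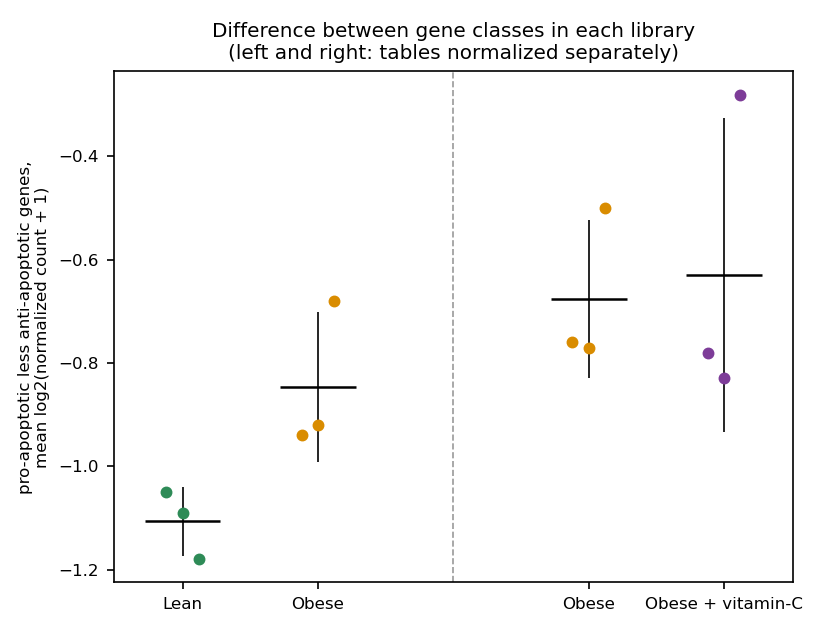
Mean log2(normalized count + 1) of the pro-apoptotic genes less that of the anti-apoptotic genes (y axis) in each library (points), with the group mean (horizontal bar) and SD (vertical line), n = 3 per group and the separately normalized tables on either side of the dashed line. The lowest Obese library, at −0.94, lies above the highest Lean library, at −1.05, and the treated libraries span the untreated range, with treated library 6 highest at −0.28.

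The second comparison asked whether added vitamin-C altered 5hmC on these genes in Obese-MSCs. HAX1 alone met the study's criteria, with higher 5hmC after treatment but at values of a few normalized counts. CASP14 and MADD, which were lower in Obese- than in Lean-MSCs, had log2 ratios of −0.15 and −0.18 after treatment. This was 1 of 39 members, against a background of 1.92% of all 18992 genes in either direction, 1.11% higher and 0.806% lower. HAX1 was also the only member whose groups did not overlap, against 5.91% of all genes (3.24% higher and 2.67% lower). By limma 0 of 36 members tested passed an adjusted p of 0.05, all at 1, and 0 of 36 had an unadjusted p of at most 0.05, against 0.974% of all genes. A total of 23 ratios were above 1 and 16 below, with a median log2 ratio of 0.04 beside 0.01 over all genes.

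HAX1 had 3.02, 3.70 and 4.50 normalized counts in treated libraries 4, 5 and 6 and 2.64, 1.10 and 1.36 in untreated libraries 1, 2 and 3. The gap between treated library 4 and untreated library 1 was less than 1 step. The means were 3.74 ± 0.741 and 1.70 ± 0.825 (SD, n = 3 each), at a log2 ratio of 1.14. The criteria were met only without treated library 4 or without untreated library 1 and were missed in the other 4 of 6 cases. The same untreated libraries gave the lower HAX1 values of both comparisons, so these are not independent.

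CASP14 had 54.3, 48.1 and 45.6 normalized counts in treated and 47.4, 47.3 and 69.4 in untreated libraries, a log2 ratio of −0.15. The treated libraries lay in or just under the untreated range. MADD had 28.2, 42.7 and 35.8 in treated and 35.3, 45.0 and 40.2 in untreated libraries, a log2 ratio of −0.18. HRK ranged from 4.32 to 14.0 after treatment, beyond the untreated range of 7.53 to 8.99 on both sides. BCL2L13 had 20.1, 34.3 and 35.9 in treated and 34.6, 34.3 and 32.5 in untreated libraries, with treated library 4 alone below the rest.

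The effectors had log2 ratios of −0.00 for BAX, 0.18 for BAK1 and 0.22 for BOK. BAX had 11.1, 23.2 and 22.5 normalized counts in treated and 12.8, 23.5 and 20.6 in untreated libraries. BAK1 had 16.1, 8.20 and 20.8 against 10.2, 12.9 and 16.6, and BOK had 31.2, 44.4 and 53 against 43.3, 39.7 and 27.6. The groups of all 3 effectors overlapped widely. Of the initiator caspases, CASP8 had 96.6, 60.1 and 51.7 in treated and 82.1, 70.8 and 82.8 in untreated libraries. Treated libraries lay on both sides of the untreated range of CASP8, at a log2 ratio of −0.18. The other initiator ratios were 0.01 for CASP9, −0.02 for CASP10 and −0.30 for CASP2 on the log2 scale. CASP10 had 227, 190 and 182 in treated and 180, 208 and 220 in untreated libraries, and its neighbour CFLAR had 180, 157 and 93.7 against 152, 135 and 113. CASP6 had 3.03, 15.9 and 13.5 against 4.10, 15.9 and 7.91, a log2 ratio of 0.21.

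All 6 apoptosome and mitochondrial factors had ratios above 1 after vitamin-C, none of which met the criteria. APAF1 had 65.4, 87.1 and 71.6 normalized counts in treated and 48.1, 85.7 and 78.7 in untreated libraries, and HTRA2 had the highest log2 ratio of these genes above the floor, 0.37. CYCS ranged from 0.00292 to 3.65 and from 0 to 2.42. The largest ratio besides HAX1 among members above the floor was that of BNIP3, with 8.05, 9.31 and 4.37 in treated and 6.21, 2.18 and 1.5 in untreated libraries. Treated library 6 lay under untreated library 1, and the ratio of 2.19 had an unadjusted p of 0.0725 and an adjusted p of 1 by limma. DFFA was the only member at or below a ratio of 0.7, with 9.05, 4.58 and 5.32 against 13.1, 7.56 and 7.94. Treated library 4 of DFFA lay within the untreated range, at a log2 ratio of −0.59. In all, 4 of 39 members were past either ratio threshold, against 21.7% of all genes.

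BID had 20.1, 17.5 and 30.6 normalized counts in treated and 27.0, 22.5 and 12.2 in untreated libraries, and BCL2L11 had 99.6, 107 and 66.9 against 96.9, 99.7 and 70.4. Neither BH3-only gene separated the groups, and the log2 ratios of the 6 BH3-only genes ran from −0.13 to 0.26. Of the anti-apoptotic genes, BCL2 had 84.5, 110 and 49.8 in treated and 82.8, 133 and 60.3 in untreated libraries, a log2 ratio of −0.17. BCL2L1 had 27.2, 16.5 and 34.2 against 24.1, 22.6 and 29.5, and MCL1 had 6.04, 14.0 and 6.17 against 10.4, 7.56 and 11.5. The groups of both genes overlapped. XIAP had 30.2, 43.7 and 12.2 against 13.5, 41.6 and 22.2, BIRC3 had 139, 150 and 81.2 against 130, 164 and 82.3, and BIRC5 had 3.02, 4.61 and 7.25 against 7.88, 7.47 and 1.65. The spread within either group of these IAP genes was larger than the difference between the groups.

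The median log2 ratio of treated to untreated libraries was 0.08 over 21 pro-apoptotic genes, with 14 above 1, and −0.02 over 11 anti-apoptotic genes, with 5 above 1. The pro-apoptotic less anti-apoptotic mean of log2(normalized count + 1) was −0.78, −0.83 and −0.28 in treated libraries 4, 5 and 6 and −0.76, −0.77 and −0.50 in untreated libraries 1, 2 and 3. The groups overlapped, and treated library 6 and untreated library 3 were the highest of their groups.

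**Figure D4:**
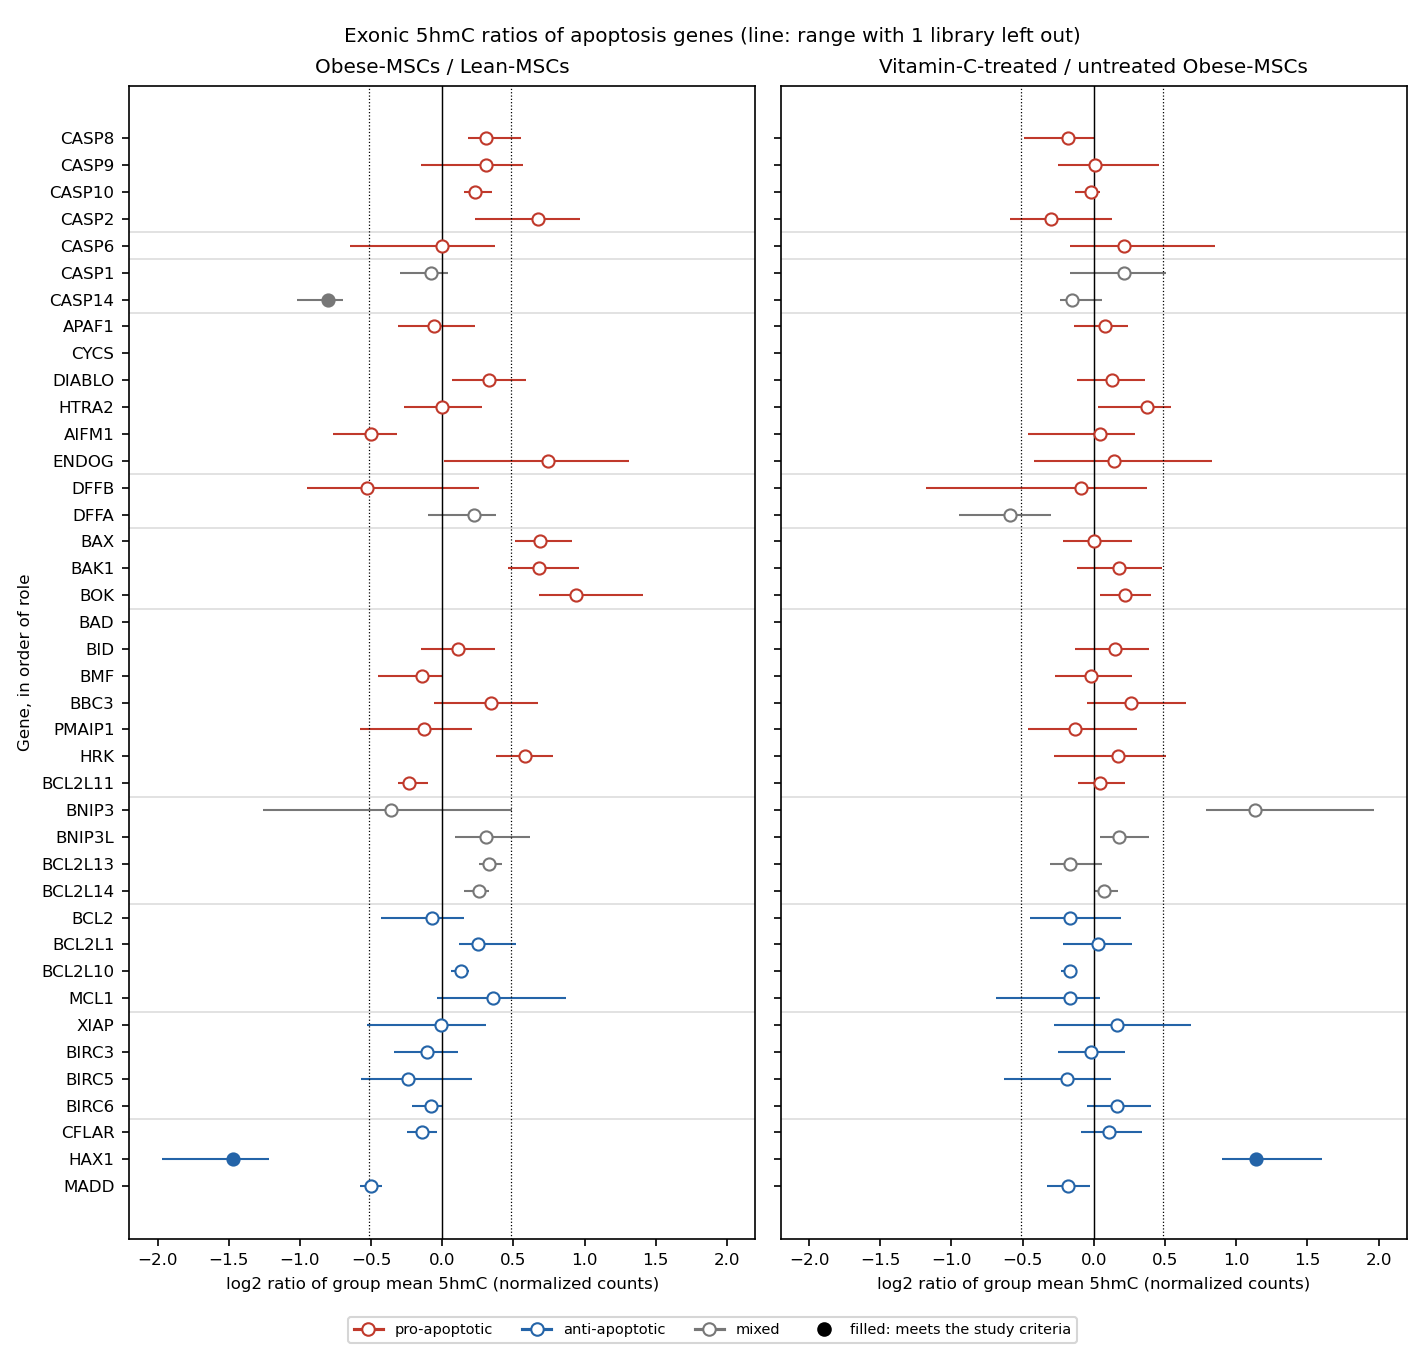
Log2 ratio of group means of exonic 5hmC (x axis) for each member (y axis, ordered by role) in Obese- versus Lean-MSCs (left) and vitamin-C-treated versus untreated Obese-MSCs (right). Circles are the ratios over 3 libraries per group, filled where the study's criteria were met, lines give the range with 1 library left out, dotted lines mark ratios of 0.7 and 1.4, and members with both means at or under 3 normalized counts are not drawn. CASP14 and HAX1 stand lowest on the left, BAX, BAK1 and BOK among the highest, and HAX1 and BNIP3 stand apart on the right.

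The members varied between libraries about as much as other genes. Their median coefficient of variation was 30.3% in Obese- and 27.4% in Lean-MSCs, against 29.9% and 27.7% over all genes. In the second table it was 33.1% in treated and 29.4% in untreated libraries, against 31.8% and 28.7%.

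Around these core genes, a wider apoptosis list of 89 genes (death receptors and their adaptors, p53 and stress inputs, other caspases and caspase substrates, further BCL2 family and IAP genes, mitochondrial factors and other regulators) had 77 in both tables. In Obese- versus Lean-MSCs 3 of the 77 met the study's criteria, 2 higher and 1 lower, which is 3.90% against the 4.50% of all genes, and the median log2 ratio was 0.05. DDIT3, the stress-induced transcription factor CHOP, was lower, with 18.5, 20.9 and 21.1 normalized counts in Obese-MSCs and 43.8, 30.8 and 29.8 in Lean-MSCs. FIS1, an adaptor of mitochondrial fission, was higher, with 3.81, 5.72 and 3.60 against 1.15, 0.991 and 2.05. BIRC7, an IAP gene, was at 0.739, 0.944 and 1.17 in the Obese libraries and at 0 in all Lean libraries, and since all values are under the floor no fold is given. The groups of these 3 genes did not overlap, but limma gave DDIT3 an adjusted p of 0.679, and FIS1 and BIRC7 were too low to be tested. None of the 15 death receptor axis genes met the criteria. After vitamin-C 1 of the 77 met them, which is 1.30% against the 1.92% of all genes. It was PDCD6, a calcium-binding protein of the apoptotic response, with 7.05, 11.1 and 11.7 in treated and 5.19, 3.27 and 6.34 in untreated libraries. The means of PDCD6 were 9.96 ± 2.53 and 4.93 ± 1.55 (SD, n = 3 each), and limma gave an adjusted p of 1. The list's median log2 ratio after vitamin-C was 0.06.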

How the data were processed

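The authors aligned paired-end hMeDIP-seq reads to Sscrofa11.1 with Bowtie2 (2.3.3.1), removed duplicates with Picard (1.67), counted reads over exons of each gene with HTSeq (0.9.1) and processed the counts with edgeR (3.28.1), per the methods. The deposited values are a normalized exonic coverage signal per gene, fractional, in 2 tables scaled separately. Read counts cannot be rebuilt from these values (32.0% to 99.2% of values within 0.1 of a whole step), so no count test was run and depth per library is unknown.

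Members, classes and the wider list were chosen with earlier results of these data known. Of the second table's values, 645 residues of rounding were set to 0, and 25 of its symbols looked like dates. The study's criteria were applied to all genes of a table, and the calls are those of this application, not the study's own gene lists. limma (3.58.1, R 4.3.3) with a mean trend was run on log2(value + 1) over the upper 80% of genes by mean, with Benjamini-Hochberg adjustment. These fold changes understate low genes. Log2 ratios in the text are of group means, without a pseudocount. Both tests were checked on simulated data, with large changes planted only in genes above the median level. Smaller changes and lower genes were not covered by this check. Members were given by library where they met the criteria or did not overlap, were on a fixed list covering each role, or were chromosomal neighbours. BOK, CASP2, AIFM1, BNIP3, BAD and DFFA were added after their values were seen, and the others are given by range or ratio. Positions are RefSeq gene spans of Sscrofa11.1, found for 40 members. No exon lengths were used here, so levels of different genes are not compared.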

Additional observations from a re-analysis of the deposited data

How the results depend on the processing

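In Obese- versus Lean-MSCs the 2 members meeting the criteria became 0 at p at most 0.01, 4 without the ratio threshold (BCL2L13 and MADD added), 1 at ratios of 2 and 0.5 (HAX1) and 4 after quantile normalization (HRK and MADD added). With 1 library left out the count ran from 1 (without Lean 7) to 5 (without Lean 9), and was 4 without Obese 1. After vitamin-C the 1 member became 0 at p at most 0.01 and 0 to 1 with 1 library left out, being 0 without treated 5, treated 6, untreated 2 or untreated 3. Alternatives for the wider list were chosen after seeing the data. Its 3 genes became 1 at p at most 0.01 and 2 to 4 with 1 library left out. After vitamin-C its 1 gene became 0 at p at most 0.01, 0 with unequal variances, 2 without the ratio threshold, and 0 to 5 with 1 library left out (0 without untreated 3, 5 without treated 4). No share of all genes is given here for these altered settings. The counts therefore do not show whether members or the wider list exceed the background.

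The median log2 ratio in Obese- versus Lean-MSCs was 0.27 for pro-apoptotic members once those with both means at or under 3 were left out, and 0.11 to 0.26 with 1 library left out. For anti-apoptotic members it ran from −0.34 (without Obese 2) to 0.08 (without Obese 3). After vitamin-C the pro-apoptotic median ran from 0.02 to 0.18 with 1 library left out. The cause of these shifts was not tested. limma called 0 members in either comparison under every alternative run, with smallest adjusted p-values among members of 0.511 to 0.961 and 0.9996 to 1. No called member changed direction. The labels pair no libraries, since the groups share no replicate numbers, so the comparisons were run as unpaired. This was a choice of test and does not show that the design was unpaired. Per the methods, both kinds of Obese-MSC culture began as third-passage cells, and whether they share pigs is not given. A replicate block was fitted with limma for each of the 6 matchings of treated with untreated libraries, an alternative chosen after seeing the data. The block called 0 members, and 0 of 36 had an unadjusted p of at most 0.05 in any matching. Over all 15193 genes tested, 86 to 372 had such a p, depending on the matching, against 148 without a block. The 372 came with treated 4, 5 and 6 matched to untreated 1, 2 and 3. With about 1 normalized count per step, differences in members at a few counts (HAX1, CYCS, BAD, ENDOG, BNIP3, DFFB) rest on few reads.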

Other observations

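Within the second table, deviations of each library from its group mean, on the log2(value + 1) scale, were correlated between treated and untreated libraries over 15193 genes of one normalization. The correlation across genes was 0.26 between treated 4 and untreated 1, 0.34 between treated 5 and untreated 2, and 0.15 between treated 6 and untreated 3, and it was below 0 for the other 6 pairs (−0.22 to −0.03). Over the 39 apoptosis genes the same 3 pairs gave 0.35, 0.26 and 0.11, and the other 6 ranged from −0.27 to 0.05. BCL2 and BIRC3 show it in single values, with treated 5 and untreated 2 the highest and treated 6 and untreated 3 the lowest of their groups. BIRC5 does not, with treated 6 the highest and untreated 3 the lowest of their groups. Deviations within a group of 3 sum to 0, so high values in some pairs force low values in others. Genes of a library share its depth and are not independent replicates, and the labels give no pairing, so whether these cultures share a pig was not tested.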
